A study of Homo sapiens with 4 samples.

Results

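The Polycomb repressive complexes were described here through the genes of 10 core subunits in MIA-PaCa2, a human pancreatic carcinoma cell line, comparing cells resistant to AMG510 with untreated cells. The members were chosen by symbol, as 5 genes of Polycomb repressive complex 2 (PRC2: EZH2, EZH1, EED, SUZ12 and JARID2) and 5 of Polycomb repressive complex 1 (PRC1: RING1, RNF2, BMI1, CBX2 and CBX7). All 10 had an identifier among the 57773 genes listed and enough counts to be among the 16090 tested. AMG510 (sotorasib) is a targeted anticancer drug. The resistant group held 2 libraries, from a pair of populations grown for 2 months in rising amounts of the drug up to 5 µM, and the untreated group held 2 libraries of the same line without it. All cells shared the same medium with serum, and the labels do not say whether the drug was present at harvest. The treatment tag of resistant replicate 2 names AMG511 where its title names AMG510, and the library was kept in its titled group. The replicates are described as cell populations, with no word on how far apart they were kept, so p-values measure only the spread between these libraries, which may be partly technical.

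PRC2 places methyl groups on a lysine of histone H3, and PRC1 attaches ubiquitin to histone H2A and compacts the chromatin that PRC2 has marked. Together they keep developmental genes and some cell cycle inhibitors silent, and in dividing tumour cells EZH2 is known as a target of the E2F transcription factors, which drive entry into DNA replication. In the pancreas BMI1 is known for silencing the CDKN2A locus, which holds 2 tumour suppressors and is deleted in many pancreatic carcinomas.

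Of the 10 core genes, EZH1 and CBX7 rose in resistant cells, SUZ12 fell, and 7 did not pass the test. EZH1 was 1.78-fold higher and CBX7 1.54-fold higher, while SUZ12 had 0.70 of its untreated level. EZH2, the main catalytic subunit of PRC2 in dividing cells, was not called, and its values in the groups overlapped. The 3 calls are 30% of the members, next to 34.0% of all tested genes called at an adjusted p below 0.05 (16.6% higher and 17.4% lower), so the share of members called was close to that of all genes. The median log2 fold change of the members was −0.08, against −0.01 over all tested genes. Their median absolute log2 fold change was 0.20, against 0.51 over all tested genes, and 0 of the members differed at least 2-fold, as 22.9% of tested genes did. In 5 of the 10 members the groups were fully separated (3 with resistant libraries above and 2 below), next to 70.9% of all tested genes (34.6% above and 36.3% below).

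The expected counts of the libraries summed to between 30146559 and 38052558, and 3 counts, the level that a count of 0 allows, corresponded to between 0.0788 and 0.0995 CPM, the count of a gene scaled to the size of its library. Such limits cover counting error only. The keratins KRT8 and KRT18, which mark a carcinoma line and overlap each other in the annotation, averaged 1103 and 1090 CPM in resistant libraries and 2583 and 2009 CPM in untreated ones. The 10 markers of leukocytes, endothelium, red cells, acinar cells and islets that had an identifier summed to between 0.533 and 1.1 CPM in resistant libraries and between 1.46 and 1.60 CPM in untreated ones. PRSS1 and INS were at 0 counts throughout. The most abundant of the 10 was HBA1, at up to 1.04 CPM. In RNA from whole cultures, fewer cells that use a gene and less RNA of it per cell cannot be told apart.

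The promoters of EZH2, of its relative EZH1, and of SUZ12 and CBX7 are shown because the results turn on these 4 genes. E2F words were marked because most genes of the E2F and proliferation list were called lower in the resistant libraries. E2F activity was not tested. The sequences are RefSeq windows on build GRCh38.p14, from 250 bases before the annotated start to 20 bases after it, written 5′ to 3′ on the strand of the gene. Capitals mark the E2F words TTTCCCGC, TTTGGCGC, TTTCGCGC and TTTGCCGC and the word CCAAT, each on either strand. The 2 motifs do not overlap in these windows.
EZH2 promoter (chr7:148884272-148884541, minus strand): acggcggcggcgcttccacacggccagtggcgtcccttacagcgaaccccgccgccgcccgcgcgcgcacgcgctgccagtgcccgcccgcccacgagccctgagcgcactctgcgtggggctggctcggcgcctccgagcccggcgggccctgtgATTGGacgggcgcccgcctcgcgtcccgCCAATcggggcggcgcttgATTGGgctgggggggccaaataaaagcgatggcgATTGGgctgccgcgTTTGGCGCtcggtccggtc
EZH1 promoter (chr17:42745021-42745290, minus strand): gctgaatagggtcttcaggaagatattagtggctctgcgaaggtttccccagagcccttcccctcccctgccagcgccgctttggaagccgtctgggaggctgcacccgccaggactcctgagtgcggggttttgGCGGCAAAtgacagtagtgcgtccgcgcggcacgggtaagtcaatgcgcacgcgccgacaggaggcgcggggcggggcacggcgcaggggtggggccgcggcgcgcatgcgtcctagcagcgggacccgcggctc
SUZ12 promoter (chr17:31936757-31937026, plus strand): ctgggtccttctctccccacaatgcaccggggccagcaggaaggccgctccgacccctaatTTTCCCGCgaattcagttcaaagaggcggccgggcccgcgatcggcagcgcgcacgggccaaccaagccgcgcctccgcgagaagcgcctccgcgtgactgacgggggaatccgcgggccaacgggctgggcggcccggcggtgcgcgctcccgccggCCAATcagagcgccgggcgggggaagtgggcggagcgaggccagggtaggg
CBX7 promoter (chr22:39152661-39152930, minus strand): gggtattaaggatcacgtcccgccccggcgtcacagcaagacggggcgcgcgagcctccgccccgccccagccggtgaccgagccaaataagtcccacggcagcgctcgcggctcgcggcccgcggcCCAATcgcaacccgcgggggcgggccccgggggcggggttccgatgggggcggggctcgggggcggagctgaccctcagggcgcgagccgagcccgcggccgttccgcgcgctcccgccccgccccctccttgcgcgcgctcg
An E2F word was found in windows of EZH2, EZH1 and SUZ12, and in no window of the other 6 members with an entry (EED, JARID2, RING1, RNF2, BMI1 and CBX7). Of all 35116 windows in the table, each from 250 bases before to 50 after a start, 1164 (3.31%) held one. That share is per window, whereas the members are counted by gene. EZH2, JARID2 and BMI1 had 2 windows each, and the EZH2 window not shown held no E2F word. Counted from the start, with 1 as the first transcribed base, the word began at 2 in EZH2, at −115 in EZH1 and at −189 in SUZ12. CCAAT occurred 4 times in the EZH2 window shown and once each in those of SUZ12, CBX7, EED and JARID2, where 34.6% of all windows held it. These matches describe letters only. Of the genes with an E2F word, EZH1 rose, SUZ12 fell and EZH2 was not called.

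**Figure D1:**
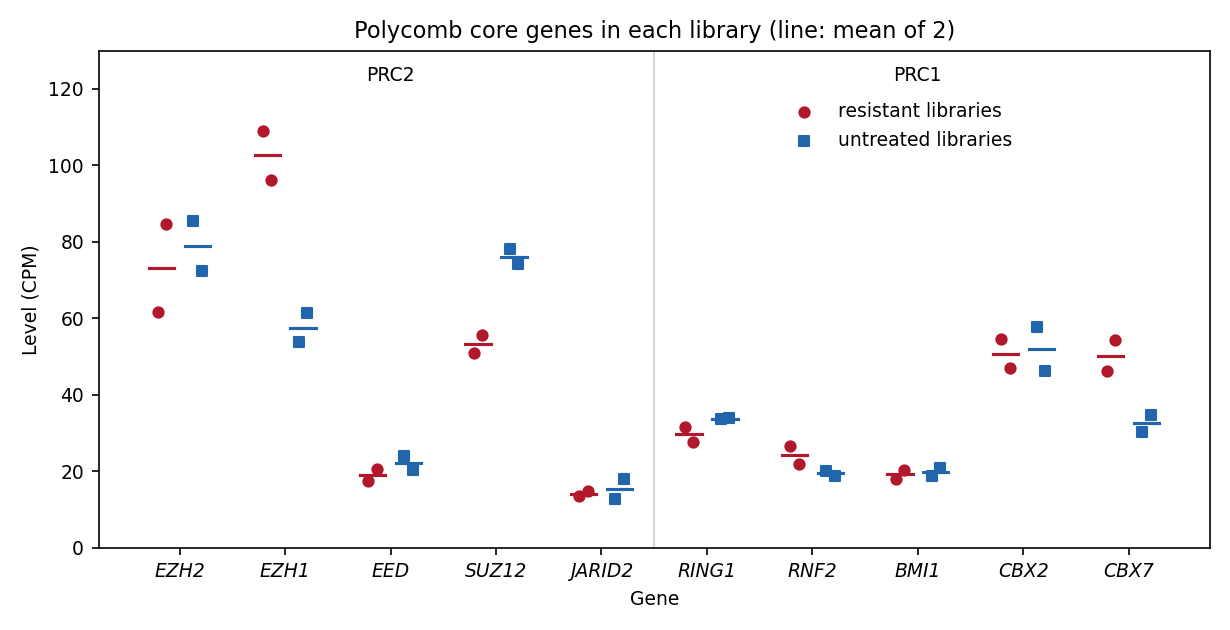
Level of each core gene in CPM (vertical axis) for the 2 resistant libraries (circles) and the 2 untreated libraries (squares), with the mean of each pair as a line. EZH1 and CBX7 lie higher and SUZ12 lower in resistant libraries without overlap, while the EZH2 values of the groups overlap between 72.3 and 84.8 CPM.

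EZH2 and EZH1 are alternative methyltransferases, of which EZH1 is known mainly from resting and differentiated cells. EZH2 (ENSG00000106462, chromosome 7) had 61.7 and 84.8 CPM in resistant libraries 1 and 2, against 85.6 and 72.3 CPM in untreated libraries 1 and 2. Resistant replicate 1 was the lowest, and resistant replicate 2 lay between the untreated values. Its log2 fold change was −0.11 (SE 0.19), with a 95% interval of −0.52 to 0.30 and an adjusted p = 0.690 (edgeR's quasi-likelihood test). The interval covers a fall and a rise, and the sign turned to 0.12 without resistant replicate 1 and to 0.04 without untreated replicate 1. EZH1 (ENSG00000108799, chromosome 17) had 109 and 96.3 CPM in resistant libraries, against 53.9 and 61.3 CPM in untreated ones. Both resistant values were above both untreated values by far more than the spread inside either group. EZH1 averaged 103 ± 8.99 CPM in resistant and 57.6 ± 5.25 CPM in untreated libraries (SD, n = 2), a log2 difference of 0.83 (SE 0.16, edgeR adjusted p = 0.00309). It was called with each library left out in turn, with log2 values between 0.76 and 0.92.

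Within a library the ratio of EZH2 to EZH1 counts does not depend on library scaling. EZH2 had 0.566 and 0.880 times the counts of EZH1 in resistant libraries, against 1.59 and 1.18 times in untreated ones. EZH1 thus had more counts than EZH2 in both resistant libraries and fewer in both untreated ones. These counts are not divided by transcript length, so they do not rank EZH1 against EZH2. Per kilobase of the longest transcript, EZH2 averaged above EZH1 in both groups. In CPM per kb, EZH2 had 27.8 against 22.2 in resistant and 29.9 against 12.5 in untreated libraries. Per kilobase of the median transcript, EZH1 was above EZH2 in resistant libraries (41.1 against 28.8). The mean log2 ratio of the counts was −0.50 in resistant and 0.45 in untreated libraries, a difference of −0.96. A two-sided exact permutation test gave p = 0.333, the smallest that 2 against 2 libraries allow. The difference ranged from −1.27 to −0.64 with each library left out.

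SUZ12 is the scaffold on which PRC2 assembles, EED reads the methyl mark and stimulates the enzyme, and JARID2 is a cofactor that helps to bring the complex to chromatin. SUZ12 (ENSG00000178691, chromosome 17) had 50.9 and 55.6 CPM in resistant libraries, against 78.1 and 74.1 CPM in untreated ones. The resistant pair lay clearly below the untreated pair. SUZ12 averaged 53.3 ± 3.35 CPM in resistant and 76.1 ± 2.82 CPM in untreated libraries (SD, n = 2), a log2 difference of −0.51 (SE 0.15, edgeR adjusted p = 0.0260). Its call ended without resistant replicate 1 (−0.44, adjusted p = 0.173), without untreated replicate 1 (−0.45, adjusted p = 0.146) and without untreated replicate 2 (−0.56, adjusted p = 0.0502). SUZ12 is uncertain because SUZ12P1, a near-identical pseudogene, took 12.1% and 13.3% of the counts of both genes in resistant libraries and 8.11% and 8.59% in untreated ones. With the counts of both summed, the log2 fold change was −0.44 and the call stood (adjusted p = 0.0461).

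EED (ENSG00000074266, chromosome 11) had 17.6 and 20.6 CPM in resistant libraries, against 23.9 and 20.3 CPM in untreated ones, and the groups overlapped. Its log2 fold change was −0.21 (SE 0.20, 95% interval −0.65 to 0.24, adjusted p = 0.464). JARID2 (ENSG00000008083, chromosome 6) had 13.5 and 14.8 CPM in resistant libraries, inside the untreated values of 12.9 and 18.0 CPM. Its log2 fold change was −0.12 (SE 0.24, 95% interval −0.65 to 0.40, adjusted p = 0.719), and 0.12 without untreated replicate 2. Neither gene was called, and both intervals reach from a fall to a rise.

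RING1 and RNF2 (also called RING1B) are the ubiquitin ligases of PRC1. RING1 (ENSG00000204227, chromosome 6) had 31.7 and 27.6 CPM in resistant libraries, against 33.6 and 33.9 CPM in untreated ones. RNF2 (ENSG00000121481, chromosome 1) had 26.6 and 21.8 CPM in resistant libraries, against 20.2 and 18.7 CPM in untreated ones. The resistant values of RING1 lay below and those of RNF2 above the untreated values, with no overlap, but neither gene passed. The log2 fold change was −0.19 for RING1 (SE 0.18, 95% interval −0.58 to 0.20, adjusted p = 0.450). For RNF2 it was 0.31 (SE 0.20, 95% interval −0.13 to 0.75, adjusted p = 0.252). RNF2 had 0.837 and 0.789 times the counts of RING1 in resistant libraries, against 0.602 and 0.552 times in untreated ones. The ratio was higher in both resistant libraries, a log2 difference of 0.50 (two-sided exact permutation p = 0.333, the smallest possible), and from 0.43 to 0.56 with each library left out.

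**Figure D2:**
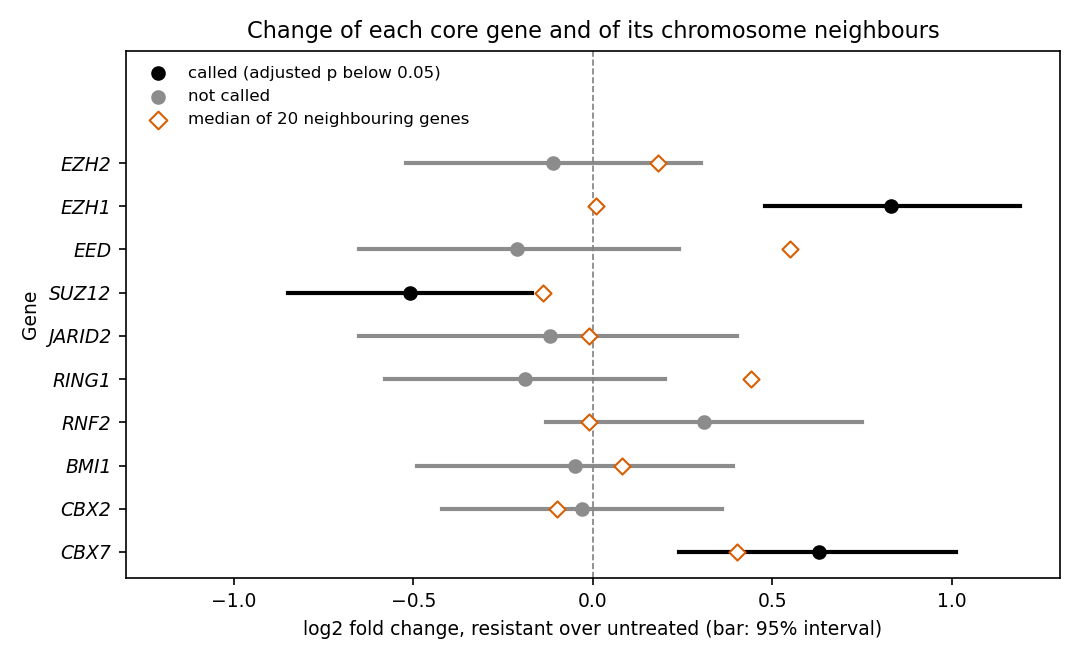
Log2 fold change of each core gene, resistant over untreated (horizontal axis), with its 95% interval as a bar, black where the gene was called and grey where not. Diamonds give the median of 20 neighbours, the 10 tested protein-coding genes on either side in gene order. The EZH1 diamond is at 0.01, far from the gene's 0.83, whereas that of CBX7 is at 0.40, inside the gene's interval.

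BMI1, a PCGF subunit that activates the ligase in canonical PRC1, was not called, and its values in the groups overlapped. BMI1 (ENSG00000168283, chromosome 10) had 18.1 and 20.4 CPM in resistant libraries, against 18.8 and 21.0 CPM in untreated ones. Its log2 fold change was −0.05 (SE 0.20, 95% interval −0.49 to 0.39, adjusted p = 0.877), and 0.05 without resistant replicate 1 and 0.03 without untreated replicate 2. BMI1 is uncertain because it lies inside the read-through gene COMMD3-BMI1, which took 12.1% and 9.18% of their joint counts in resistant libraries and 13.7% and 15.9% in untreated ones. CDKN2A, the locus for which BMI1 is known in the pancreas, was at 0 counts in all 4 libraries. Whether the locus is present in this line was not tested, so these counts say nothing of silencing.

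The CBX subunits hold PRC1 on chromatin that carries the methyl mark. CBX7 (ENSG00000100307, chromosome 22) had 46.3 and 54.3 CPM in resistant libraries, against 30.4 and 34.8 CPM in untreated ones. Both resistant values were above both untreated values. CBX7 averaged 50.3 ± 5.70 CPM in resistant and 32.6 ± 3.07 CPM in untreated libraries (SD, n = 2), a log2 difference of 0.63 (SE 0.17, edgeR adjusted p = 0.0188). Its call ended without resistant replicate 2 (0.50, adjusted p = 0.0786) and without untreated replicate 1 (0.56, adjusted p = 0.112). A pseudogene inside CBX7, COX5BP7, took at most 0.262% of their joint counts. CBX2 (ENSG00000173894, chromosome 17) had 54.5 and 47.1 CPM in resistant libraries, against 57.7 and 46.2 CPM in untreated ones. The groups overlapped, and its log2 fold change of −0.03 (SE 0.18, 95% interval −0.42 to 0.36, adjusted p = 0.908) was 0.16 without untreated replicate 1 and 0.07 without resistant replicate 2. CBX2 had 1.18 and 0.867 times the counts of CBX7 in resistant libraries, against 1.90 and 1.33 times in untreated ones. The ratio was lower in both resistant libraries, a log2 difference of −0.65 (two-sided exact permutation p = 0.333), and from −0.91 to −0.39 with each library left out.

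**Figure D3:**
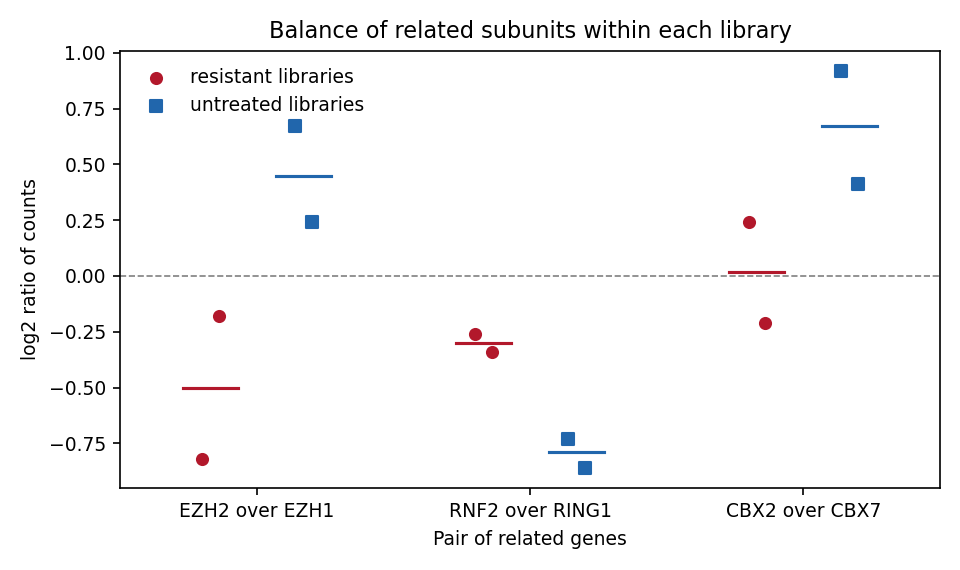
Log2 ratio of the counts of related subunits within each library (vertical axis), for resistant libraries (circles) and untreated libraries (squares), with group means as lines. The EZH2 over EZH1 values are below 0 in both resistant libraries and above 0 in both untreated ones, in counts not divided by transcript length. No pair overlaps between the groups (two-sided exact permutation p = 0.333 for each, the smallest possible). Of all tested single genes, 70.9% did not overlap either.

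The median log2 fold change differed between chromosomes, so each core gene was set beside its neighbours, the 10 tested protein-coding genes on either side. CBX7 lies on chromosome 22, where the median log2 fold change of 329 tested protein-coding genes was 0.46, and its 20 neighbours had a median of 0.40, with 16 above 0. The level of CBX7 moved in the same direction as the genes around it, and the part of the chromosome in its change was not tested. The neighbours of EZH1 had a median of 0.01 and those of SUZ12 one of −0.14, against a log2 fold change of 0.83 for EZH1 and −0.51 for SUZ12. EED and RING1, neither of them called, had log2 fold changes of −0.21 and −0.19 among neighbours with medians of 0.55 for EED and 0.44 for RING1. EZH2 had a log2 fold change of −0.11 among neighbours with a median of 0.18. The neighbour medians of JARID2, RNF2, BMI1 and CBX2 lay between −0.10 and 0.08.

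Levels of different genes were compared per kilobase of the longest protein-coding transcript (GENCODE 29 basic set). EZH2 was highest in both groups, at 27.8 ± 6.18 CPM per kb in resistant and 29.9 ± 3.57 CPM per kb in untreated libraries (SD, n = 2), and JARID2 was lowest, at 2.46 ± 0.161 and 2.69 ± 0.619 CPM per kb in resistant and untreated libraries. In resistant libraries EZH1 came next at 22.2 CPM per kb and overlapped EZH2, followed by RING1 at 16.9. CBX7, SUZ12 and CBX2, at 12.3, 11.9 and 10.9 CPM per kb, overlapped each other, and EED (8.60), RNF2 (6.71) and BMI1 (5.61) followed without overlap between neighbours in the order. In untreated libraries RING1 (19.3 CPM per kb) and SUZ12 (16.9) stood second and next in the order, apart from each other. EZH1 (12.5) overlapped CBX2 (11.2), and CBX2 overlapped EED (9.93). CBX7 (7.98) stood above BMI1 (5.80), which overlapped RNF2 (5.40). The order depends on the transcript assumed: per kilobase of the median protein-coding transcript EZH1 was first in resistant libraries, at 41.1 CPM per kb, above EZH2 at 28.8.

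**Figure D4:**
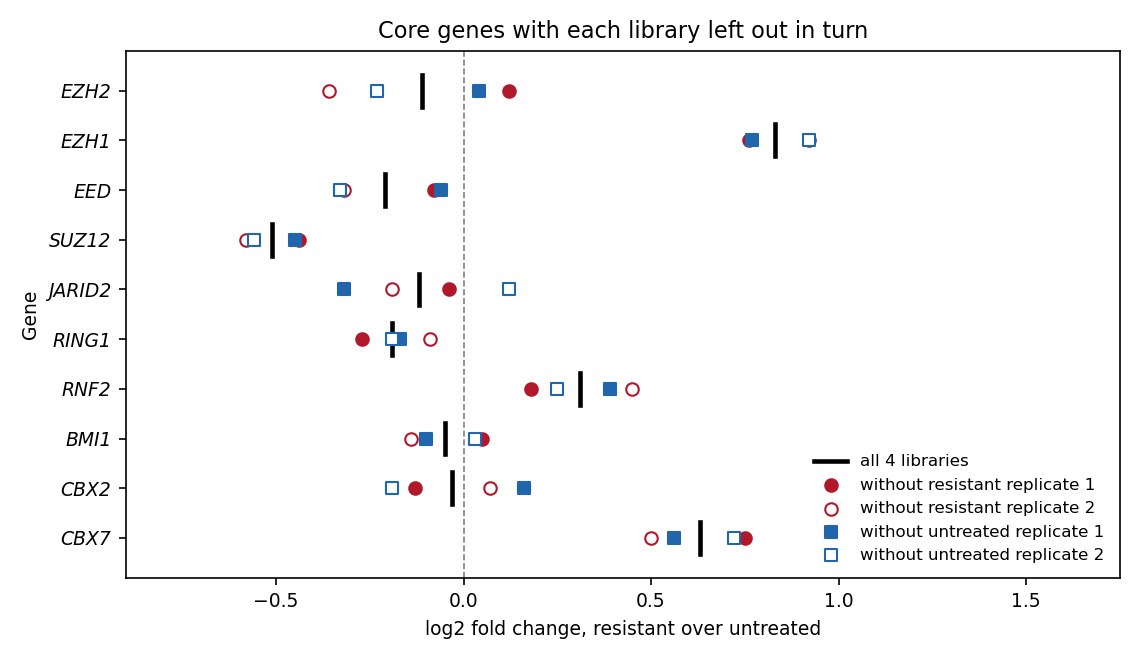
Log2 fold change of each core gene, resistant over untreated (horizontal axis), from all 4 libraries (black line) and with each library left out in turn (symbols). The values of EZH1 (0.76 to 0.92), CBX7 (0.50 to 0.75) and SUZ12 (−0.58 to −0.44) keep their sign, whereas those of EZH2, JARID2, BMI1 and CBX2 fall on both sides of 0.

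The further PRC2 subunits and cofactors moved in both directions. Of 9 listed genes, EPOP had no matching identifier, EZHIP was at 0 counts in all libraries and 7 were tested, of which 1 rose, 2 fell and 4 did not pass (median log2 fold change −0.18), next to 16.6% of all tested genes called higher and 17.4% lower. PHF1, a Polycomb-like protein that binds methylated histone H3 and assists PRC2, had 169 and 91.8 CPM in resistant libraries, against 32.7 and 33.0 CPM in untreated ones. This was a 3.97-fold rise (log2 fold change 1.99, SE 0.27, adjusted p = 0.00135, edgeR) with a wide gap between the resistant libraries, and PHF1 overlaps CUTA, an expressed gene on the opposite strand, so its value is uncertain. PHF19, another Polycomb-like protein, fell to 78.7 and 77.7 CPM in resistant libraries, against 145 and 121 CPM in untreated ones (−0.77, SE 0.16, adjusted p = 0.00497). RBBP4, a histone-binding subunit shared with other chromatin complexes, fell to 159 and 159.7 CPM in resistant libraries, against 283 and 264 CPM in untreated ones (−0.78, SE 0.16, adjusted p = 0.00413). RBBP4 overlaps SYNC on the opposite strand. Its relative RBBP7 did not pass, with a log2 value of 0.02 (SE 0.16, edgeR adjusted p = 0.931). The value was −0.06 without resistant replicate 2 and −0.05 without untreated replicate 2, and RBBP7 overlaps TXLNG on the opposite strand. AEBP2, a cofactor found with JARID2, was at −0.18 (SE 0.18, adjusted p = 0.470) and not called.

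Of 25 further PRC1 subunits, PCGF2 had no matching identifier, AUTS2 had too few counts and 23 were tested, of which 4 rose, 4 fell and 15 did not pass (median −0.01). The calls were 34.8% of the list, near the 34.0% of all tested genes. SCML2, a sex-comb-on-midleg relative, had 31.4 and 35.2 CPM in resistant libraries, against 11.8 and 12.2 CPM in untreated ones (log2 fold change 1.47, SE 0.19, adjusted p = 4.52e-04). Its 20 neighbours on chromosome X had a median of 0.66. PHC3, one of the polyhomeotic proteins that join PRC1 complexes into larger bodies, had 110.5 and 145 CPM in resistant libraries, against 53.8 and 59.1 CPM in untreated ones (1.18, SE 0.18, adjusted p = 9.02e-04). The 20 neighbours of PHC3 on chromosome 3 had a median of 1.02, with 18 above 0, near to its own change, and the part of the neighbourhood in it was not tested. PHC2, a relative of PHC3, moved the other way, at 67.5 and 58.5 CPM in resistant libraries, against 109.7 and 90.9 CPM in untreated ones (−0.67, SE 0.17, adjusted p = 0.0111). The call of PHC2 ended without untreated replicate 1 (−0.51, adjusted p = 0.106). PCGF5, a relative of BMI1 in variant PRC1 complexes, rose to 12.0 and 14.9 CPM in resistant libraries, against 3.68 and 4.70 CPM in untreated ones (1.68, SE 0.28, adjusted p = 0.00159), while its neighbours on chromosome 10 had a median of −0.21. DCAF7 and FBRS, partners in variant complexes with high levels, each had a log2 fold change of −0.01 (adjusted p = 0.966 for DCAF7 and 0.973 for FBRS), which was above 0 under RLE and upper-quartile scaling. Without resistant replicate 1 there were 5 calls in this list, and 4 without untreated replicate 1.

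**Figure D5:**
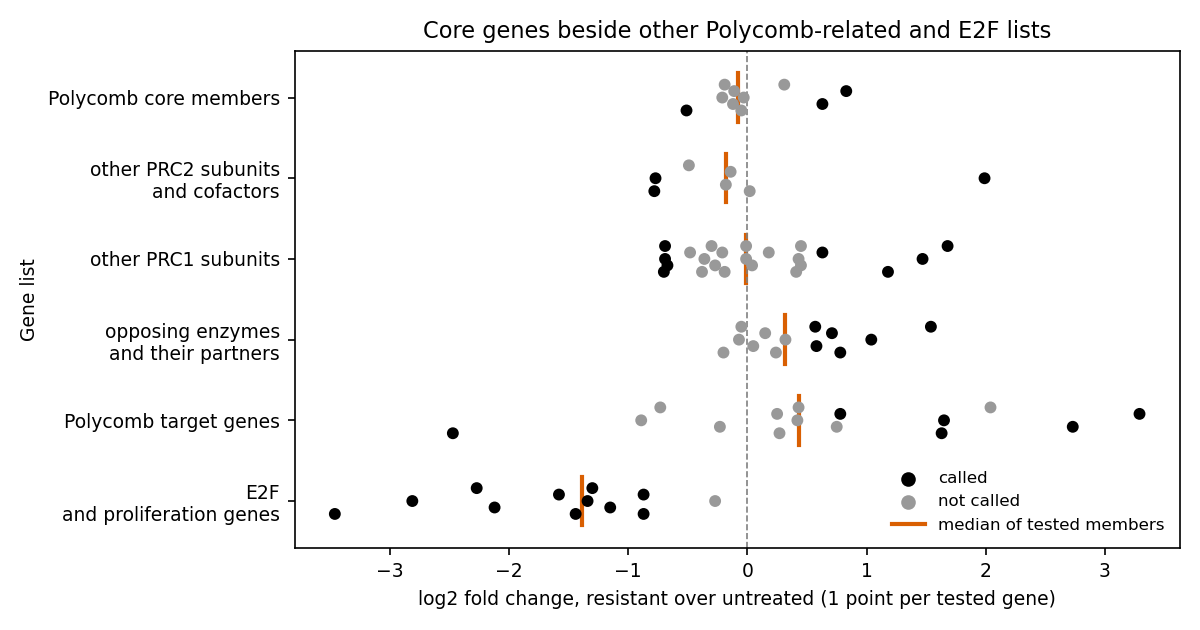
Log2 fold change, resistant over untreated (horizontal axis), of each tested gene in 6 lists (rows), black where called and grey where not, with the median of the tested genes of a list as an orange line. The core genes lie between −0.51 and 0.83, the opposing enzymes and their partners have calls above 0 alone, and the 12 E2F and proliferation genes all lie below 0.

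The list of enzymes known to oppose Polycomb, and of their partners, had calls in the upward direction alone. Of 15 listed genes 13 were tested, of which 6 rose, 0 fell and 7 did not pass (median 0.32), next to 16.6% of all tested genes called higher and 17.4% called lower. The called genes were KDM6B and the methyltransferase KMT2C, which are enzymes, and FOXK1, ASXL1, MBD5 and MBD6, which are partners of the deubiquitinase BAP1. BAP1 itself had a log2 value of −0.07 (adjusted p = 0.750) and was not called. KDM6B, a demethylase that removes the PRC2 mark, had 79.1 and 60.0 CPM in resistant libraries, against 23.0 and 24.7 CPM in untreated ones. This was a 2.91-fold rise (log2 fold change 1.54, SE 0.19, adjusted p = 2.57e-04). KDM6A, the other demethylase of this mark in the list, had 3 and 0 counts in resistant libraries, against 1 and 3 counts in untreated ones, at or under the level that a count of 0 allows. FOXK1, a transcription factor that binds the BAP1 complex, rose to 306 and 305 CPM in resistant libraries, against 139 and 159 CPM in untreated ones (1.04, SE 0.16, adjusted p = 0.00118). ASXL1 and MBD5, partners of BAP1, rose by 0.58 (SE 0.16, adjusted p = 0.0182) for ASXL1 and 0.78 (SE 0.21, adjusted p = 0.0165) for MBD5 on the log2 scale. The call of ASXL1 ended without resistant replicate 1 (adjusted p = 0.0984) or untreated replicate 1 (adjusted p = 0.107), and that of MBD5 without resistant replicate 2 (adjusted p = 0.0678) or untreated replicate 1 (adjusted p = 0.0996). MBD5 overlaps ORC4 on the opposite strand, and MBD6 overlaps DDIT3 and DCTN2 on the opposite strand. The chromosome neighbours had a median of 0.24 for FOXK1, 0.15 for ASXL1 and 0.13 for KDM6B. KMT2A, a methyltransferase of the opposing Trithorax group, was not called (0.32, SE 0.18, adjusted p = 0.191), and neither was FOXK2 (0.24, SE 0.19, adjusted p = 0.354), which overlaps WDR45B. Without untreated replicate 1 there were 2 calls in this list, and 4 without either resistant library.

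Genes that are textbook Polycomb targets were in part at or near 0 counts, and those tested moved in both directions. Of 26 listed, 11 had too few counts to test, of which CDKN2A, RUNX3, WNT1, CNR1, KCNA1 and PAX3 were at 0 counts in all libraries and the other 5 had at most 3 counts in any. Why these genes had so few counts was not tested. Of the 15 tested, 5 rose, 1 fell and 9 did not pass (median 0.43), where 16.6% of all tested genes were called higher and 17.4% lower. KLF2, a Krüppel-like transcription factor, fell to 15.0 and 9.65 CPM in resistant libraries, against 71.8 and 64.4 CPM in untreated ones (log2 fold change −2.47, SE 0.23, adjusted p = 5.02e-05). FBXO32, a ubiquitin ligase subunit, rose to 6.04 and 3.85 CPM in resistant libraries, against 1.54 and 1.60 CPM in untreated ones (1.65, SE 0.39, adjusted p = 0.00903). CCND2, the cyclin D2, had 3.66 and 0.918 CPM in resistant libraries, against 0.271 and 0.187 CPM in untreated ones (3.29, SE 0.73, adjusted p = 0.00719). Resistant replicate 1 carried most of that rise: without it the log2 fold change of CCND2 was 2.00 (adjusted p = 0.0772), without resistant replicate 2 it was 3.98, and without untreated replicate 1 it was 3.60 (adjusted p = 0.0502). GATA4, a transcription factor of the endoderm, was not called (−0.23, SE 0.17, adjusted p = 0.325), and neither was DAB2IP, a GTPase-activating protein (0.43, SE 0.16, adjusted p = 0.0573), which passed without resistant replicate 2, under upper-quartile scaling or with a stricter filter (adjusted p from 0.0409 to 0.0455). Without untreated replicate 1 there were 3 calls in this list.

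EZH2 is known as an E2F target, and most of the E2F and proliferation genes listed beside it fell. Of 12 tested genes 11 fell, 0 rose and 1 did not pass (median log2 fold change −1.39), and all 12 had both resistant values below both untreated values, against 36.3% of all tested genes. Most of this direction was known from earlier results on these libraries. CDC6, which loads the replicative helicase, had 15.6 and 20.2 CPM in resistant libraries, against 94.9 and 60.6 CPM in untreated ones (−2.12, SE 0.24, adjusted p = 2.93e-04). PCNA, the sliding clamp of DNA polymerases, fell by 2.27 on the log2 scale (SE 0.28, adjusted p = 9.11e-04), and E2F2, one of the E2F activators, fell by 3.46 (SE 0.47, adjusted p = 0.00118). Leaving out resistant replicate 2 gave E2F2 a log2 value of −4.55, and leaving out resistant replicate 1 gave −2.85. CCNE2, the cyclin E2, fell by 2.81 (SE 0.42, adjusted p = 9.02e-04) and is uncertain because it overlaps NDUFAF6 and INTS8. CCNA2, the cyclin A2, did not pass (−0.27, SE 0.16, adjusted p = 0.222) and overlaps EXOSC9.

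Within the resistant group, 10 of the 12 E2F and proliferation genes and 6 of the 10 core genes, EZH2 among them, were lower in replicate 1 than in replicate 2, next to 50.7% of all tested genes. Within the untreated group, 11 of the 12 and 5 of the 10 were higher in replicate 1, next to 49.3% of all tested genes. MKI67, the proliferation marker Ki-67, had 120.2 and 261 CPM in resistant libraries 1 and 2, against 511 and 526 CPM in untreated ones, and EZH2 had 61.7 and 84.8 CPM in the same resistant libraries. The genes whose log2 CPM profile over the 4 libraries was most like that of EZH2, among 9353 tested protein-coding genes with a mean of at least 10 CPM, were RBFA, DUSP11, PPP2R1B, CCAR1 and SPPL2A. Their Euclidean distances from the EZH2 profile, each centred on its own mean, lay between 0.0507 and 0.0761 in log2 units. With 4 values per profile and so many candidates, close matches say little, and shared control with EZH2 was not tested.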

How the data were processed

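Polyadenylated RNA was sequenced from 2 resistant and 2 untreated libraries, grouped by their titles. Per the file headers, the authors deposited 1 expected count for each gene and library, with no scaling. The submitters' processing notes name STAR 2.7.2b, RSEM 1.3.1 and GRCh37 without their roles, and the strand setting is not given in the sources used here. Of all values 93.6% were exact whole numbers, and the rest were rounded for the tests. Symbols named 39538 of the 57773 identifiers. GENCODE 29, of another genome build, gave chromosome names, gene order, overlaps and transcript length only.

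Genes were kept with edgeR's filterByExpr, scaled with TMM (factors 0.962 to 1.05) and tested in edgeR 4.0.16 with its quasi-likelihood F-test (R 4.3.3, robust dispersions, common biological coefficient of variation 19.6%). P-values were adjusted over all 16090 tested genes by the Benjamini-Hochberg method, and calls needed an adjusted p below 0.05. Fold changes are log2, resistant over untreated. The SE is the fold change divided by the square root of F, and 95% intervals use its degrees of freedom. The gene test was checked on simulated counts. Alternatives were other scalings and filters, a replicate block, each library left out, a threshold of 0.01, DESeq2 1.42.0, limma-voom 3.58.1, edgeR's newer quasi-likelihood form, and counts summed with pseudogenes or read-through genes.

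The members, lists and rules were chosen with earlier results of these data known. Named were all members and, per further list, at most 4 called genes (smallest adjusted p first) and at most 2 not called (highest level first). KDM6A, BAP1, KMT2C, MBD6, MKI67 and genes at 0 counts were named after their values were seen. A gene that the rule names is not reported here.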

Additional observations from a re-analysis of the deposited data

How the results depend on the processing

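The calls of EZH1, CBX7 and SUZ12 kept their direction under every alternative run. At a threshold of 0.01, EZH1 alone of the 3 was called, and 1 member and 2832 genes were called in all, against 3 members and 5463 genes at 0.05. With each library left out, between 1 and 2 members and between 2832 and 5041 genes were called, the fewest without untreated replicate 1. The other scalings, filters and tools, and the replicate block, each called the same 3 members. The block was only an alternative, since same-numbered libraries did not deviate together (correlation −0.0604). It gave 5275 calls, and EZH1 had an adjusted p = 0.00397, CBX7 0.0203 and SUZ12 0.0322.

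Log2 fold changes near 0 changed sign in genes that were not called. With each library left out, EZH2 ranged from −0.36 to 0.12 (0.04 without untreated replicate 1), JARID2 from −0.32 to 0.12, BMI1 from −0.14 to 0.05 (0.03 without untreated replicate 2), CBX2 from −0.19 to 0.16 (0.07 without resistant replicate 2) and RBBP7 from −0.06 to 0.11 (−0.05 without untreated replicate 2). DCAF7 had 0.00 under RLE scaling and DESeq2, 0.01 under upper-quartile scaling, 0.02 with a stricter filter and 0.05 without resistant replicate 1. FBRS had 0.01 under RLE scaling and DESeq2, 0.02 under upper-quartile scaling and with a stricter filter, 0.03 without untreated replicate 1, and between −0.13 and 0.12 with each library left out. The cause was not tested. With 2 libraries in a group, leaving one out assumes that the lone library varies like the others.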
